A study of Saccharomyces cerevisiae with 6 samples.

Results

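The genes described here are 9 genes of the yeast response to weak organic acids, WAR1, PDR12, HAA1, YGP1, SPI1, GPG1, YRO2, MRH1 and HSP30, out of 5197 genes that the array annotation names. They were taken by their symbols, with earlier results of these data known, and each was read by 1 probe. Weak acids such as sorbic and acetic acid cross the plasma membrane undissociated at low pH, release their proton inside the cell and leave an anion behind. Yeast answers through a pair of main transcription factors. War1p is a zinc cluster protein that induces PDR12, an ATP-binding cassette pump that expels the anions of sorbic, benzoic and propionic acid. Haa1p, a relative of the copper-sensing factor Cup2p, induces genes of the cell surface and of membrane transport in response to acetic and lactic acid. Both factors are of interest in wine fermentation because the must is acidic and the cells form acetic acid and medium-chain fatty acids.

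RNA was measured on 6 one-color arrays, 3 of 59A PDR8-S288c and 3 of wild type 59A, each from a separate fermentation. 59A is a haploid MATa strain derived from the industrial wine yeast EC1118, while S288c is the usual laboratory strain. In 59A PDR8-S288c the PDR8 gene of 59A, which encodes a transcription factor of pleiotropic drug resistance, was replaced by the S288c allele. By the methods this was done with a kanMX4 resistance cassette in the PDR8 terminator after a deletion of the gene, and a later excision of that marker is not mentioned. Effects of the allele and of the marker therefore cannot be told apart. Whether the replicates came from 1 transformant is not given in the sources used here. Nothing else was altered by design, so that both strains carry the WAR1 and HAA1 alleles of 59A. Cultures with and without a weak acid treatment were not compared. All grew in the same anaerobic synthetic must of pH 3.3 with 425 mg/l assimilable nitrogen, and were sampled in stationary phase at 66 g/l of released CO2, which is 70% of fermentation progress. The comparison asks whether the weak acid genes respond to the PDR8 allele at this stage.

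Values are log2 spot intensities normalized by the authors, with background at 5.3 and saturation at 16. A difference of 1 is a doubling. Differences between strains are log2 fold changes, taken as the mean of 59A PDR8-S288c minus the mean of 59A. The array of 59A replicate 3 has no value for 32.9% of the 6271 probes, among them those of HAA1, YRO2 and MRH1, so that these genes compare 3 cultures with 2. All 6 arrays lay on slide 1. Replicates 1, 2 and 3 were at positions 6, 7 and 5 for 59A PDR8-S288c and at positions 8, 1 and 2 for 59A. Strain and position on the slide therefore cannot be fully told apart. Strains were compared with limma over 6248 genes and unnamed probes, with Benjamini-Hochberg adjustment. Of the a-specific genes that mark a MATa strain, 6 were measured with mean signals of 6.84 to 11.3, while the alpha-factor genes MF(ALPHA)1 and MF(ALPHA)2 averaged 5.64 and 5.38 in 59A PDR8-S288c and 5.63 and 5.34 in 59A, close to background. The alpha-agglutinin gene SAG1 averaged 7.09 in 59A PDR8-S288c and 7.19 in 59A. By limma's adjusted p, 0 of these 6 a-specific genes and 0 of 4 alpha-specific genes measured differed between the strains, where 1.54% of all features did. At an unadjusted p under 0.05, MFA1 (-0.38) and AGA2 (-0.26, 2 wild type values) were lower in 59A PDR8-S288c, against 8.1% of all features. QDR2, a transporter gene under Pdr8p control, was higher by 2.22 log2 units (SE 0.07; limma, adjusted p = 1.41e-05). The probe of PDR8 itself gave -0.49 (SE 0.05; limma, adjusted p = 0.026; 2 wild type values), and its match to each allele was not examined. The PDR8 call was lost in 7 of 15 alternatives, among them 4 of the 6 that leave out 1 array, with adjusted p between 0.0148 and 0.202 and a log2 fold change of -0.52 to -0.47. Of 135 ribosomal protein genes, 47 passed an adjusted p under 0.05 as lower in 59A PDR8-S288c and 0 as higher, where 1.02% and 0.512% of all features did, and 133 had a log2 fold change below 0.

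None of the 9 weak acid genes passed an adjusted p under 0.05 from limma, against 1.54% of all features (0.512% in the higher and 1.02% in the lower direction). At an unadjusted p under 0.05 there were 3, MRH1 and HAA1 with a higher signal and GPG1 with a lower signal in 59A PDR8-S288c. That threshold was passed by 18.1% of all features, 9.99% higher and 8.1% lower. Log2 fold changes ran from -0.12 for GPG1 to 0.32 for MRH1, with 6 genes above 0 and 3 below. Their median was 0.11, against 0.01 over all features. All 9 probes were measured well within the range of the array, with mean signals between 1.95 log2 units (WAR1) and 8.93 log2 units (YGP1) above background. The spread between cultures of a strain had a median SD of 0.09 over these genes and of 0.07 over all features. No gene of the group had an interval reaching a doubling or a halving.

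**Figure D1:**
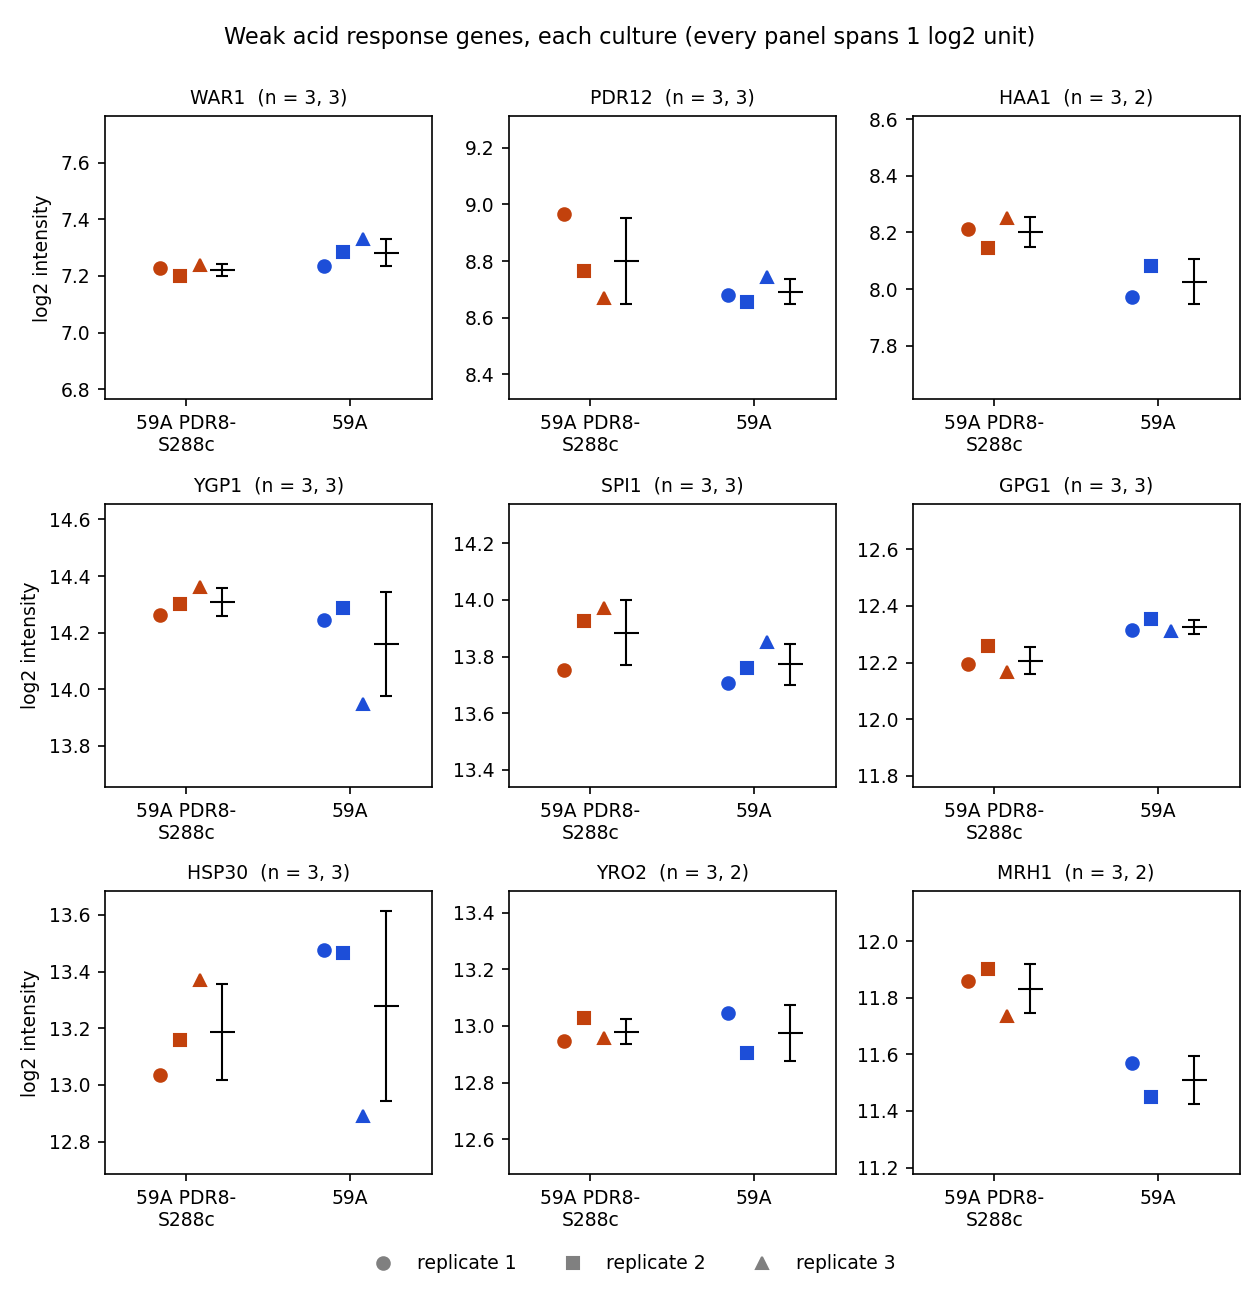
Log2 intensity (vertical axis, 1 log2 unit in every panel) of the 9 weak acid genes in each culture of 59A PDR8-S288c (left) and 59A (right), with symbols for the replicates and the mean ± SD as a bar; n is given in the order 59A PDR8-S288c, 59A. MRH1 and HAA1 lie higher and GPG1 lower in all cultures of 59A PDR8-S288c. The other 6 genes overlap between the strains, and HSP30 spreads over 0.59 log2 units within 59A. Over all features, overlap was lacking in 24.6% of those on 6 arrays and in 35% of those with 2 wild type values.

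WAR1 encodes the activator of the sorbic acid response. Its signal was 7.23, 7.20 and 7.24 in replicates 1, 2 and 3 of 59A PDR8-S288c, against 7.23, 7.28 and 7.33 in those of 59A. The strains overlapped slightly, through 59A replicate 1 alone. WAR1 gave -0.06 (SE 0.04; limma, adjusted p = 0.511), with a 95% confidence interval from -0.16 to 0.04, or 0.893-fold to 1.03-fold. WAR1 was among the more repeatable genes, since 86.4% of all features varied more between cultures of a strain.

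PDR12, the pump induced by War1p, had a signal of 8.97, 8.77 and 8.67 in 59A PDR8-S288c, against 8.68, 8.66 and 8.74 in 59A. Replicate 1 of 59A PDR8-S288c stood above all other cultures, while replicate 2 of that strain was just above and replicate 3 below the highest culture of 59A. PDR12 gave 0.11 (SE 0.08, adjusted p = 0.506 from limma), with a 95% confidence interval from -0.07 to 0.29, or 0.952-fold to 1.22-fold. Without that 1 culture the value was 0.02. ATO2, also called FUN34, is a further gene reported to respond to War1p. It averaged 7.81 ± 0.06 in 59A PDR8-S288c and 7.92 ± 0.06 in 59A (SD, n = 3 each), a difference of -0.12 (SE 0.05; limma, adjusted p = 0.3). The factor and these target genes therefore all stayed short of the threshold, with the factor and ATO2 on the negative side and PDR12 on the positive side.

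Related pumps were measured beside PDR12. SNQ2 and PDR18 encode ATP-binding cassette transporters of the same subfamily. SNQ2 differed by 0.17 (SE 0.14), and its sign turned to -0.02 without 59A replicate 3. PDR18 averaged 5.36 ± 0.05 in 59A PDR8-S288c and 5.49 ± 0.30 in 59A (SD, n = 3 each), near background, where a difference in expression could not be detected. The drug efflux pump gene PDR5 was not in the list of homologues. It gave 0.38 (SE 0.11; limma, unadjusted p = 0.0127, adjusted p = 0.15).

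HAA1 encodes the activator of the acetic acid response. It was measured at 8.21, 8.14 and 8.25 in 59A PDR8-S288c, against 7.97 and 8.08 in 59A replicates 1 and 2. All 3 cultures with the S288c allele of PDR8 lay above both wild type values, with a gap of 0.06 log2 units. Such a lack of overlap in either direction was found in 35% of the 2058 features with 2 wild type values, and in this direction in 21.9%. HAA1 gave 0.18 (SE 0.06, unadjusted p = 0.0247, adjusted p = 0.204 from limma), with a 95% confidence interval from 0.03 to 0.32, or 1.02-fold to 1.25-fold. An exact permutation test of 3 cultures against 2 gave a two-sided p = 0.1, the smallest it allows. CUP2, the copper-dependent relative of HAA1, was at 0.07 (SE 0.09, adjusted p = 0.722 from limma) and overlapped between the strains.

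Targets of Haa1p at the cell surface come next. YGP1 encodes a secreted glycoprotein of the cell wall that is induced on nutrient limitation and acid stress. Its signal was 14.26, 14.30 and 14.36 in 59A PDR8-S288c, against 14.24, 14.29 and 13.95 in 59A. Replicate 3 of 59A stood below the other 5 cultures, which ran from 14.24 to 14.36. YGP1 gave 0.15 (SE 0.09; limma, adjusted p = 0.421), with a 95% confidence interval from -0.06 to 0.36, and 0.04 without that culture. SPS100, a homologue of YGP1 best known from spore wall maturation, varied far more between cultures. It was measured at 8.47, 8.90 and 9.73 in 59A PDR8-S288c, against 9.31, 9.39 and 8.88 in 59A, a difference of -0.16 (SE 0.29) with a 95% confidence interval from -0.85 to 0.53. Only 0.48% of all features had a wider spread within strains than SPS100.

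SPI1, a cell wall protein anchored by a glycolipid and linked to protection against weak acids, had a signal of 13.75, 13.93 and 13.97 in 59A PDR8-S288c, against 13.71, 13.76 and 13.85 in 59A. The ranges overlapped through the lowest culture of 59A PDR8-S288c. SPI1 gave 0.11 (SE 0.07, adjusted p = 0.439 from limma), with a 95% confidence interval from -0.05 to 0.27. Its homologue SED1, a major structural protein of the stationary phase cell wall, was measured at 15.33, 15.25 and 15.29 in 59A PDR8-S288c, against 15.11, 15.16 and 15.06 in 59A. The cultures of SED1 did not overlap, as in 24.6% of the 4190 features measured on all 6 arrays (13.5% higher and 11.1% lower in 59A PDR8-S288c). It did not pass either (0.18, SE 0.05, unadjusted p = 0.00521, adjusted p = 0.103 from limma). Relative to SED1 on the same array, SPI1 differed between strains by -0.07 (SE 0.11), with overlapping cultures (exact permutation test, two-sided p = 0.6).

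GPG1 encodes a small protein proposed to act with the G protein alpha subunit Gpa2p in glucose signalling. It was the member with the lowest log2 fold change. Its signal was 12.19, 12.26 and 12.17 in 59A PDR8-S288c, against 12.31, 12.35 and 12.31 in 59A. All cultures of 59A PDR8-S288c were below all of 59A, with a gap of 0.05 log2 units. Of the features on all 6 arrays, 11.1% were lower without overlap, and 24.6% lacked overlap in either direction. GPG1 gave -0.12 (SE 0.04, unadjusted p = 0.0293, adjusted p = 0.221 from limma), with a 95% confidence interval from -0.22 to -0.02, or 0.857-fold to 0.989-fold. An exact permutation test gave a two-sided p = 0.1, which 3 cultures against 3 cannot go below. The difference was small and the spread was too, with an SD of 0.05 in 59A PDR8-S288c and 0.02 in 59A (n = 3 each).

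MRH1, YRO2 and HSP30 encode membrane proteins of 1 family with 7 membrane-spanning segments, related in sequence to microbial opsins. Hsp30p restrains the plasma membrane proton pump Pma1p under stress, and YRO2 is induced by acetic acid through Haa1p. MRH1 was measured at 11.86, 11.90 and 11.73 in 59A PDR8-S288c, against 11.57 and 11.45 in 59A replicates 1 and 2. A gap of 0.17 log2 units lay between the cultures of the strains. Of the features with 2 wild type values, 21.9% were higher without overlap. With 0.32 (SE 0.07, unadjusted p = 0.00295, adjusted p = 0.0809 from limma), MRH1 had the largest difference of the 9 genes, 1.25-fold with a 95% confidence interval from 1.11-fold to 1.41-fold. It ranked 227 of 6248 features by p-value and did not pass the threshold.

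YRO2, the closest relative of MRH1, was at 12.95, 13.03 and 12.96 in 59A PDR8-S288c, against 13.04 and 12.91 in 59A replicates 1 and 2. The cultures of the strains were fully mixed, and YRO2 gave 0.00 (SE 0.06, adjusted p = 0.985 from limma), with a 95% confidence interval from -0.14 to 0.15. HSP30 was at 13.04, 13.16 and 13.37 in 59A PDR8-S288c, against 13.48, 13.47 and 12.89 in 59A. The wild type held both the highest signals, in replicates 1 and 2, and the lowest one, in replicate 3. HSP30 gave -0.09 (SE 0.16, adjusted p = 0.819 from limma), with the widest interval of the group, from -0.47 to 0.29. Only 1.94% of all features had a wider spread within strains.

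Within single arrays the signal of MRH1 minus that of YRO2 was -1.09, -1.13 and -1.22 in 59A PDR8-S288c, against -1.48 and -1.46 in 59A. The strains did not overlap and differed by 0.32 (SE 0.05). An exact permutation test gave a two-sided p = 0.1, the smallest that 3 against 2 allow. Adjusted over the 6 pairs of homologous genes compared in this way it was 0.4. MRH1 minus HSP30 differed by 0.61 (SE 0.19, exact permutation test, two-sided p = 0.2), with a higher value in all cultures of 59A PDR8-S288c. YRO2 minus HSP30 differed by 0.29 (SE 0.14, exact permutation test, two-sided p = 0.2), also with a higher value in all cultures of 59A PDR8-S288c. Of single features with 2 wild type values, 35% lacked overlap, and the share among other gene pairs was not computed. Both differences from HSP30 rest on 2 wild type values. They lack 59A replicate 3, the culture with the lowest HSP30 signal. Without that culture HSP30 alone gave -0.28, against -0.09 with it. Of the 5 homologues listed outside the group, none passed an adjusted p under 0.05 from limma. SED1 alone passed an unadjusted p under 0.05, where 18.1% of all features did. The remaining pairs, HAA1 with CUP2 and YGP1 with SPS100, overlapped between the strains like SPI1 with SED1.

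**Figure D2:**
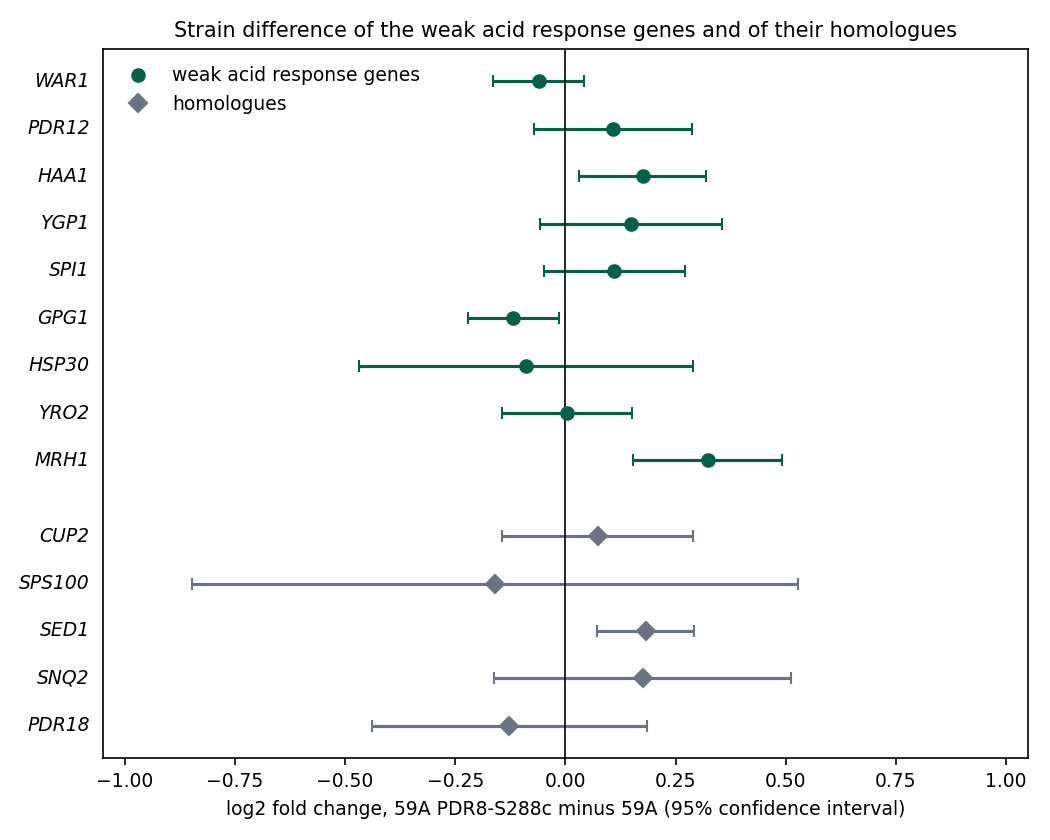
Log2 fold change (horizontal axis, 59A PDR8-S288c minus 59A) with its 95% confidence interval for the 9 weak acid genes (circles) and 5 homologues (diamonds). The intervals of HAA1, MRH1, GPG1 and SED1 leave out 0 without adjustment, MRH1 has the highest estimate of the 9 genes at 0.32, and SPS100 and HSP30 have the widest intervals of their groups.

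A list of 11 further genes of weak acid transport and proton export was read beside these. It held 1 gene past an adjusted p under 0.05, higher in 59A PDR8-S288c as were 0.512% of all features, and 10 that did not pass. Among the latter, ADY2 and AZR1 had mean signals of 5.42 and 5.24, at background, where a difference in expression could not be detected. The median of the list was 0.04. At an unadjusted p under 0.05, 3 were higher (PMA1, PMA2 and PDR5) and 0 lower, against 9.99% and 8.1% of all features. PMA1, past the adjusted threshold, encodes the plasma membrane proton pump that Hsp30p restrains and that removes the protons brought in by weak acids. Its signal was 13.27, 13.13 and 13.13 in 59A PDR8-S288c, against 12.87, 12.86 and 12.74 in 59A, with no overlap. Of the features on all 6 arrays, 13.5% were higher without overlap. PMA1 gave 0.35 (SE 0.06, adjusted p = 0.0384 from limma), or 1.28-fold. The call of PMA1 was lost when any 1 of the 6 arrays was left out, although the log2 fold change stayed between 0.31 and 0.38.

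Of 13 further genes that earlier work links to Haa1p, 9 were measured and named. None passed an adjusted p under 0.05 from limma, where 1.54% of all features did. An unadjusted p under 0.05 was reached by 0, against 18.1% of all features. Log2 fold changes in this list ran from -0.15 for SAP30, a subunit of a histone deacetylase complex, to 0.10 for YLR297W, a gene of unknown function. Of the genes in this list, TPO2 and TPO3 encode plasma membrane polyamine transporters that are well-known targets of Haa1p. TPO2 gave -0.03 (SE 0.06, 2 wild type values) and TPO3 -0.05 (SE 0.05). The median of this list was -0.03, against 0.18 for HAA1 itself.

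Among 10 other regulators of acid and stress responses, MSN4 was higher in 59A PDR8-S288c at an adjusted p under 0.05 and 9 did not pass. Over all features 0.512% were higher at that threshold. Msn4p activates the general stress response from the stress response element, and several genes of the weak acid group are also stress-induced. MSN4 was measured at 10.19, 10.08 and 10.16 in 59A PDR8-S288c, against 9.87, 9.74 and 9.79 in 59A (0.34, SE 0.05, adjusted p = 0.0347 from limma). The cultures of the strains were 0.21 log2 units apart, where 13.5% of the features on 6 arrays were higher without overlap. This call was also lost when any 1 array was left out, at log2 fold changes of 0.32 to 0.38. Its partner MSN2 gave 0.10 (SE 0.06, adjusted p = 0.441 from limma) and was looked at after its value was seen.

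**Figure D3:**
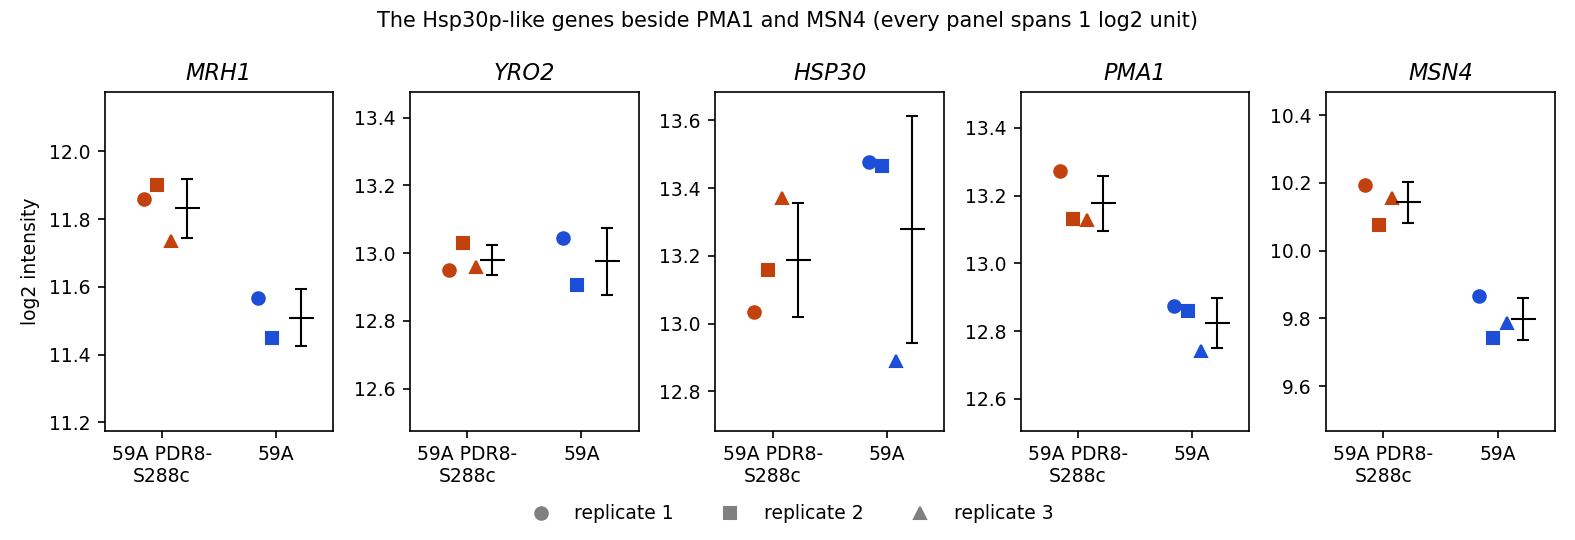
Log2 intensity (vertical axis, 1 log2 unit in every panel) of MRH1, YRO2 and HSP30, of the proton pump gene PMA1 and of the regulator gene MSN4 in each culture of 59A PDR8-S288c (left) and 59A (right), with mean ± SD as a bar. MRH1, PMA1 and MSN4 do not overlap between the strains, whereas YRO2 and HSP30 do. Higher signals without overlap were found in 13.5% of features on 6 arrays and 21.9% of those with 2 wild type values.

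The 20 markers of the general stress response held 1 gene past an adjusted p under 0.05, where 1.54% of all features passed. At an unadjusted p under 0.05, 3 markers were higher and 5 lower, against 9.99% and 8.1% of all features. The heat shock gene SSA4, of the Hsp70 family, was lower in 59A PDR8-S288c (-0.27, SE 0.05, adjusted p = 0.0416 from limma) and the other 19 did not pass. The call of SSA4 was lost when any 1 array was left out (-0.31 to -0.24). The median of the markers was -0.06, with 8 above 0 and 12 below. The mean level of the 13 markers measured on all arrays was 11.31, 11.37 and 11.42 in 59A PDR8-S288c, against 11.44, 11.54 and 11.38 in 59A. Over the 6 weak acid genes measured on all arrays it was 11.57, 11.60 and 11.63 in 59A PDR8-S288c, against 11.61, 11.63 and 11.51 in 59A. Both ranges overlapped between the strains, and both lists had their lowest wild type level in replicate 3. The part of the general stress state in the weak acid genes was not tested.

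Acetic acid is formed in the cell through aldehyde dehydrogenases. None of 8 genes of acetate formation and use passed an adjusted p under 0.05 from limma, where 1.54% of all features did. At an unadjusted p under 0.05, 1 was higher (ACS1) and 2 were lower (ALD3 and ALD4), against 9.99% and 8.1% of all features. Those with the largest differences were ALD3, a stress-induced aldehyde dehydrogenase gene that is also among the stress markers (-0.27, SE 0.07, adjusted p = 0.105 from limma), and ACS1, an acetyl-CoA synthetase gene (0.17, SE 0.06, adjusted p = 0.177 from limma). Neither the intracellular pH nor the acids in the medium are among the values used here.

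Position in the genome did not group the 9 genes. No 2 of them are next to each other in the order of genes of assembly R64. Of their 18 direct neighbours, 17 were measured, 0 passed an adjusted p under 0.05 from limma and 3 passed an unadjusted p under 0.05. Over all features 18.1% passed the unadjusted threshold. The log2 fold changes of these neighbours ran from -0.24 to 0.15, so that no neighbour reached the value of MRH1.

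**Figure D4:**
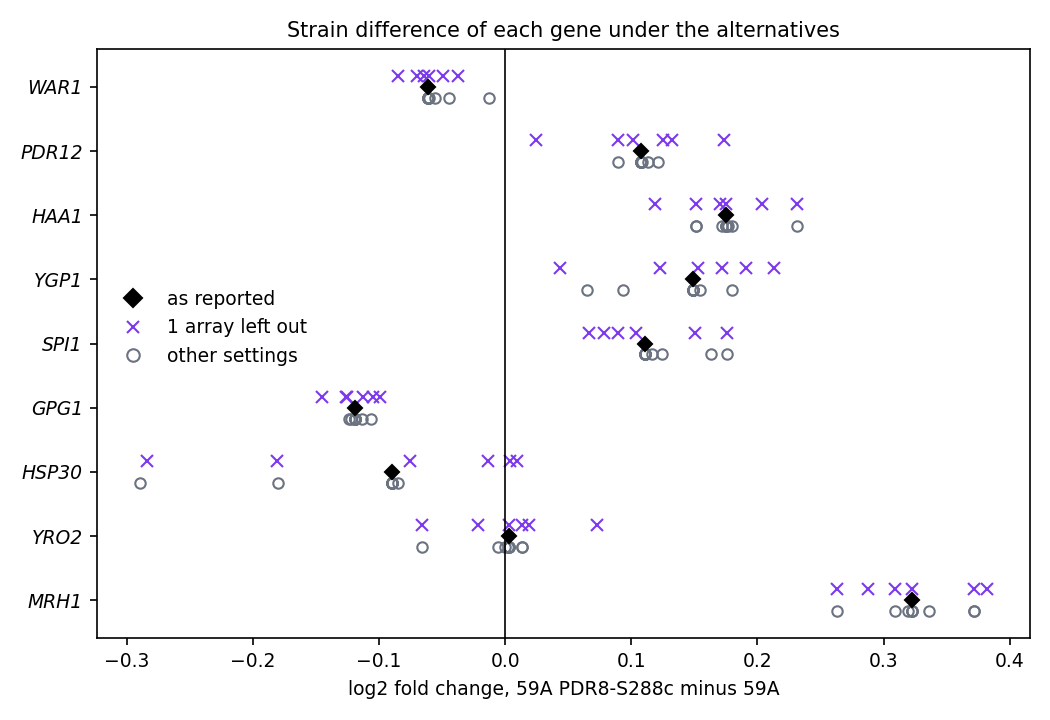
Log2 fold change (horizontal axis, 59A PDR8-S288c minus 59A) of each weak acid gene as reported (diamonds), with 1 array left out (crosses) and under the other settings (open circles). MRH1 stays between 0.26 and 0.38, WAR1, PDR12, HAA1, YGP1, SPI1 and GPG1 keep their sign, and HSP30 and YRO2 cross 0.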

How the data were processed

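Cy3-labeled cRNA of 6 cultures, 3 per strain, was hybridized to one-color Agilent arrays. The authors took the spot-median intensity, normalized it by the quantile method (R 2.13.1, limma) and deposited it as log2 values. Per the methods, normalization covered the whole array data set of the study, and whether that set held these 6 arrays is not stated. The number of arrays limits the precision. Of 6271 probes, 5220 carry 1 gene symbol, and 5218 of these matched a locus of assembly R64, used for names and neighbors only. A gene was represented by its brightest probe. The strain difference was fitted by limma (version 3.58.1, R 4.3.3; lmFit and eBayes, without a block), adjusted over 6248 features and tested on simulated data; exact permutation tests used all regroupings of the cultures. Plots used matplotlib 3.10.9. Sample titles gave groups and replicate numbers. The 9 genes and all lists were chosen with earlier results of these data known. Named were the 9 genes, their homologues, and in each list the genes past the threshold or otherwise the 2 with the largest change, plus ATO2, TPO2, TPO3, PMA1, PDR8 and QDR2. Other genes named in the text lie outside this rule. The alternatives were other scaling, dim probes left out, another variance model, array weights, the mean of probes, the replicate number as a block, slide position, complete features and each array left out.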

Additional observations from a re-analysis of the deposited data

How the results depend on the processing

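None of the 9 weak acid genes passed an adjusted p under 0.05 from limma in any of the 16 alternatives, MRH1 coming closest (adjusted p between 0.0654 and 0.45). The number at an unadjusted p under 0.05, 3 as reported, was 1 with complete features, which leaves 6 of the 9 genes, and 1 to 4 when single arrays were dropped. It was 1 (MRH1) without 59A PDR8-S288c replicate 3 or 59A replicate 1. The median of the 9 genes, 0.11, was 0.0233 over complete features and 0.0245 to 0.0898 when single arrays were dropped, lowest without 59A PDR8-S288c replicate 1 and 0.0433 without 59A replicate 3. Of 141 log2 fold changes of the 9 genes under alternatives, 135 kept their sign. YRO2 turned to -0.00534 with a second quantile normalization and -0.0659 with slide position, which also turned YLR297W to -0.00379 and SNQ2 to -0.0349. Dropping single arrays gave -0.0659 to 0.0727 for YRO2, -0.284 to 0.00967 for HSP30, -0.00379 to 0.194 for YLR297W, -0.0154 to 0.28 for SNQ2, -0.0302 to 0.142 for CUP2, -0.507 to 0.122 for SPS100 and -0.221 to 0.0468 for PDR18.

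The 96 features past an adjusted p under 0.05 became 152 under the trended robust fit, 194 when arrays were weighted and 6 in the fit with slide position, which rests on 1 wild type culture. Dropping single arrays gave 3 to 90, with 3 after the loss of replicate 1 or 2 of 59A PDR8-S288c or of 59A replicate 2, 13 without 59A replicate 1 and 48 without 59A PDR8-S288c replicate 3. In the other lists 3 genes (PMA1, MSN4 and SSA4) passed as reported, and 0 with slide position or without any single array. Whether the replicate numbers pair the samples is not known. Over the features on all 6 arrays, deviations from the strain mean were correlated between same-numbered cultures. The correlations were 0.17, 0.34 and -0.43 by title and -0.05, -0.69 and -0.43 by description. Titles and descriptions number 2 cultures of 59A PDR8-S288c differently. Such deviations cancel over the cultures of a strain, so these few values are not independent and cannot settle a pairing. With the replicate number as a block, 19 features passed by title and 3 by description, 0 of the other lists by either, and 1 weak acid gene (MRH1) passed an unadjusted p under 0.05 by description. The cause of these changes was not tested.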

Other observations

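Several genes shared an order of cultures within a strain. In 59A PDR8-S288c, replicate 1 was the lowest and replicate 3 the highest culture for YGP1, SPI1 and HSP30 and for the homologue SPS100. In 59A, replicate 3 was the lowest for YGP1, HSP30 and SPS100 but the highest for SPI1. The stress markers DDR2 and GRE1 had the same lowest and highest culture as YGP1 in 59A PDR8-S288c and, like it, replicate 3 as the lowest in 59A. Other genes did not share this order. In 59A PDR8-S288c, replicate 3 was the lowest culture for PDR12, MRH1 and GPG1. The same held for the markers CTT1 (11.63 in replicate 1, 11.28 in replicate 3), GPH1, PGM2 and TSL1. The order of cultures was chosen after the values were seen and was not tested. PDR5, a broad drug efflux pump gene in the transport list, was also picked after its value was seen. It was measured at 9.01, 9.11 and 8.72 in 59A PDR8-S288c, against 8.57 and 8.55 in 59A replicates 1 and 2. The difference was 0.38 (SE 0.11; limma, unadjusted p = 0.0127, adjusted p = 0.15) with no overlap. Of the features with 2 wild type values, 21.9% were higher without overlap.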
